A study of Homo sapiens with 18 samples.

Results

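The genes described here are 8 human genes of the ubiquitin system and of selective autophagy: UBB, which encodes polyubiquitin; VCP, which encodes an ATPase that unfolds ubiquitin-tagged proteins; SQSTM1, NBR1, OPTN and TAX1BP1, which encode receptors for ubiquitin-tagged cargo; and MAP1LC3B and GABARAPL1, which encode ATG8 proteins of the autophagosome membrane. They were chosen by name from the count table, which lists 26485 gene symbols, and all 8 were among the 12832 genes that passed the filter on low counts (a CPM, the count scaled to a common library total, above 1 in at least 3 libraries). The series measured mRNA by sequencing in SW620, a human cell line from a lymph node metastasis of a colon adenocarcinoma, and asked how silencing of the mitochondrial protease Lonp1 bears on the response to heat. Cells received either a scramble siRNA or siRNA against Lonp1 (siLonp1). Those of the Ctrl groups never left 37 °C, those of the HS groups spent 1 h at 42 °C, and those of the HS+REC groups had that same heat followed by 1 h back at 37 °C. The 6 groups were therefore Ctrl scramble, Ctrl siLonp1, HS scramble, HS siLonp1, HS+REC scramble and HS+REC siLonp1, with 3 libraries in each, 18 in all. The methods describe the replicates as independent biological ones. Every group is the same cell line in the same serum-containing medium and every group was transfected, so that no untransfected cells were sequenced. The sources name a pair of siRNAs to Lonp1 and do not say which was used for sequencing, and a single line limits the result to these cells. A total of 30815860 to 47279297 counts was assigned to genes per library, the lowest in HS scramble replicate 3. Levels below are CPM scaled by TMM factors. In bulk libraries such as these, fewer cells with a transcript and less of it per cell cannot be told apart.

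UBB supplies ubiquitin as head-to-tail repeats that are cut into single units. Heat unfolds proteins, which are tagged with ubiquitin chains and either drawn out of complexes by the VCP segregase and degraded by the proteasome, or clustered by receptors such as p62 (SQSTM1) and delivered to the lysosome. The receptors bind ubiquitin on one side and lipid-linked ATG8 proteins on the growing autophagosome on the other, and are themselves degraded with their cargo, so that mRNA levels give no measure of autophagic flux.

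Silencing was checked first on its target. LONP1, the gene of the Lonp1 protease, was at 223, 225 and 215 CPM in the Ctrl scramble libraries, 219, 227 and 197 CPM in HS scramble and 225, 197 and 233 CPM in HS+REC scramble. In the silenced cells it was at 19.4, 22.5 and 19.5 CPM in Ctrl, 11.8, 11.5 and 11.8 CPM in HS and 27.1, 25.6 and 28.9 CPM in HS+REC. Every siLonp1 library lay below every scramble library, as its label says. On the log2 scale siLonp1 against scramble gave -3.43 without heat, -4.19 in HS and -3.01 in HS+REC, so the residual LONP1 level differed between the silenced groups that are compared below. The cell label was checked on 10 markers of colon epithelium. Of these, 9 passed the filter and 8 exceeded 1 CPM on average over the 18 libraries. KRT8, the most abundant, EPCAM and VIL1 were at 4925, 379 and 348 CPM on average in Ctrl scramble, whereas CDX1 was at 0 in all 18 libraries. The summed level of the 10 markers, most of it KRT8, KRT18 and KRT19, was between 8761 and 12134 CPM over the libraries. Some of these markers differed between the siRNA arms compared below. From scramble to siLonp1 the mean of CDH17 went from 10.3 to 1.18 CPM in Ctrl, 10.7 to 1.00 CPM in HS and 12.1 to 1.40 CPM in HS+REC. In the same order CDX2 went from 29.5 to 15.8, 26.1 to 10.00 and 25.0 to 11.9 CPM, and CDH1 from 103 to 158, 102 to 158 and 86.3 to 121 CPM. KRT20, above 1 CPM only in siLonp1 libraries, went from 0.472 to 0.973, 0.425 to 0.840 and 0.427 to 0.810 CPM. Of 10 markers of leukocytes, endothelium, fibroblasts, hepatocytes and glia, 3 passed the filter and 1, COL1A1, a collagen chain, exceeded 1 CPM on average over the 18 libraries. By group, VWF reached 1.06 CPM in Ctrl siLonp1, beside 0.908 CPM in Ctrl scramble. CD14 was at 1.52 and 1.57 CPM in HS and HS+REC siLonp1, beside 0.766 and 0.855 CPM in the matching scramble groups and 0.380 and 0.401 CPM in Ctrl siLonp1 and Ctrl scramble. The sum of these 10 was 9.43 to 11.5 CPM in Ctrl scramble, 16.8 to 21.1 CPM in HS scramble and 31.4 to 33.0 CPM in HS+REC scramble, and 10.6 to 12.3, 15.7 to 21.7 and 34.8 to 37.1 CPM in the matching siLonp1 groups, with PTPRC and COL1A2, which define leukocytes and fibroblasts, at 0 CPM in Ctrl scramble. COL1A1 alone was at 9.21, 17.0 and 30.2 CPM in Ctrl, HS and HS+REC scramble and 9.70, 16.5 and 33.4 CPM in the siLonp1 groups. In HS+REC scramble and HS+REC siLonp1, PTPRC was at 0.0318 and 0.0169 CPM and COL1A2 at 0.0165 and 0.0250 CPM. DCN was at 0.0860 and 0.0748 CPM there, beside 0.0162 and 0.0170 CPM in Ctrl scramble and Ctrl siLonp1. The part of the rise of the sum in the results below was not tested.

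Levels of different genes were compared per kilobase of the MANE Select transcript (GENCODE 44, GRCh38). In Ctrl scramble the order was UBB (954 ± 26.6 CPM per kb, SD, n = 3), VCP (121 ± 3.25), SQSTM1 (84.1 ± 2.36), TAX1BP1 (34.5 ± 1.00), MAP1LC3B (29.4 ± 1.47), NBR1 (21.6 ± 0.530), OPTN (8.45 ± 0.783) and GABARAPL1 (2.33 ± 0.0396), and no neighbours in it overlapped. MAP1LC3B and TAX1BP1 changed places elsewhere: MAP1LC3B stood above TAX1BP1, without overlap, in Ctrl siLonp1 (42.8 ± 0.907 against 39.5 ± 1.97 CPM per kb) and HS siLonp1 (58.6 ± 1.67 against 43.9 ± 1.97). The 2 overlapped in HS scramble (36.4 ± 1.65 against 34.4 ± 1.82) and HS+REC scramble (43.0 ± 3.74 against 47.4 ± 5.62). In HS+REC siLonp1, MAP1LC3B at 68.6 ± 7.05 CPM per kb, SQSTM1 at 62.9 ± 3.92 and TAX1BP1 at 58.6 ± 5.86 had overlapping ranges. In the same annotation UBB lies at chr17:16380798-16382745, VCP at chr9:35053928-35072668, SQSTM1 at chr5:179806398-179838078, NBR1 at chr17:43170481-43211689, OPTN at chr10:13099449-13138308, TAX1BP1 at chr7:27739331-27844564, MAP1LC3B at chr16:87383953-87404779 and GABARAPL1 at chr12:10212458-10223128; VCP alone is on the minus strand.

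**Figure D1:**
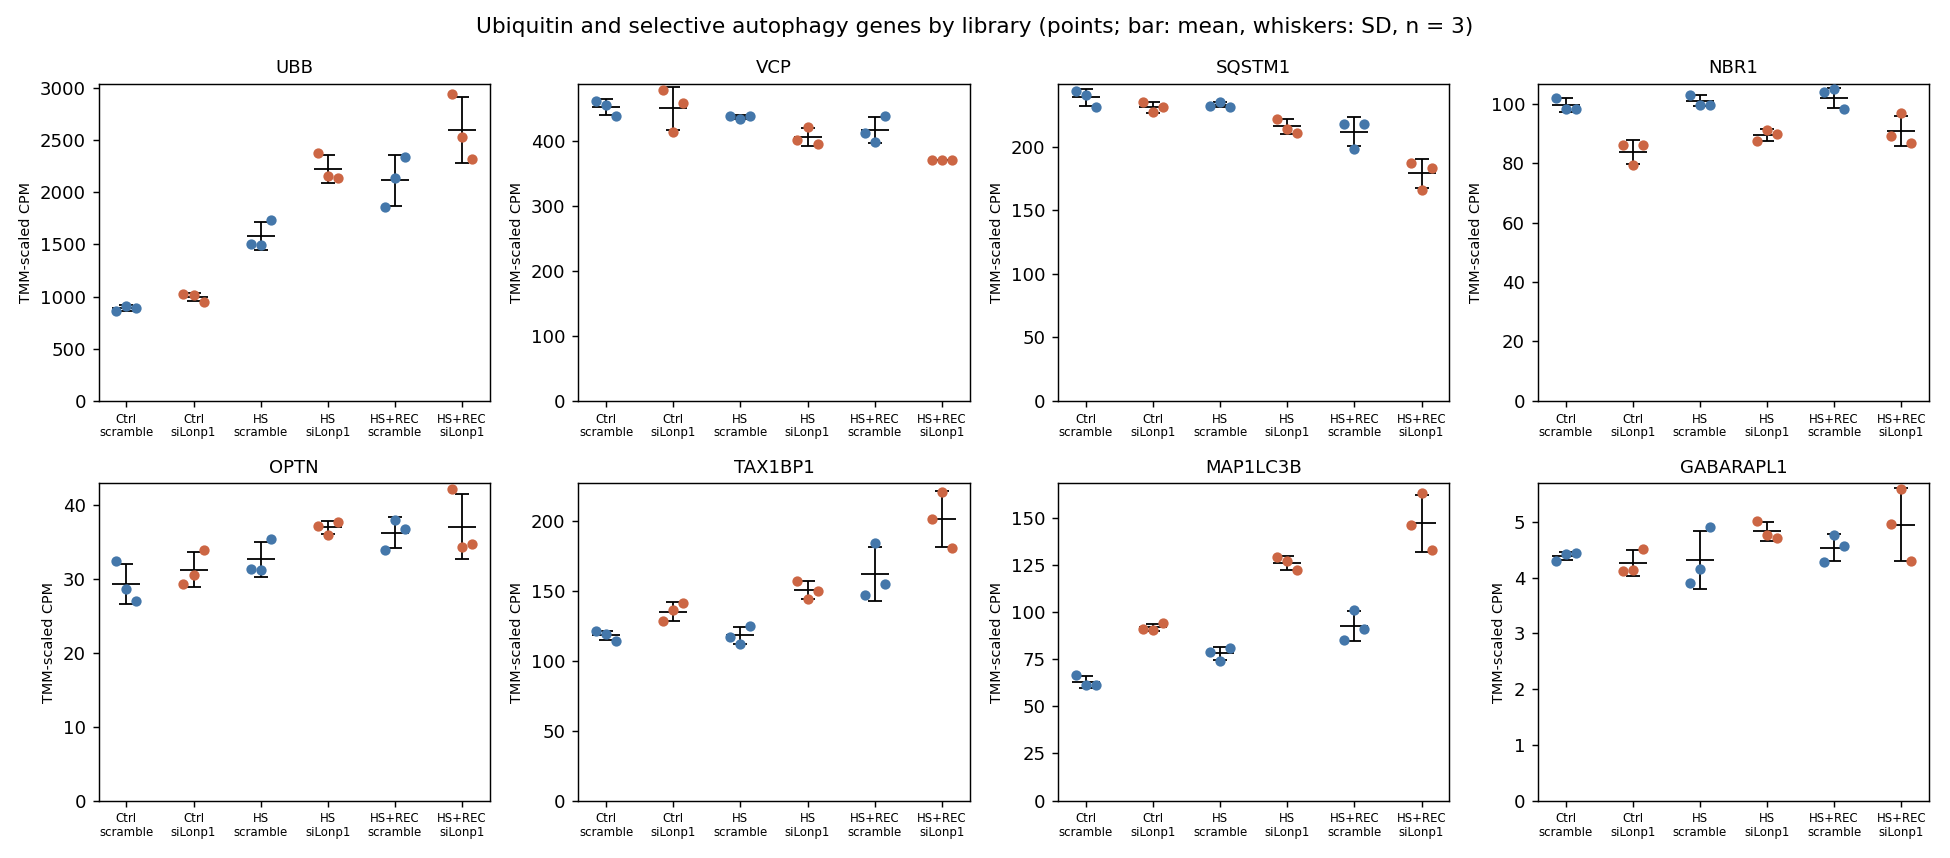
TMM-scaled CPM (y axis, from 0) of the 8 genes in each library, by group (x axis; blue scramble, orange siLonp1; bar the mean and whiskers the SD of 3 libraries). UBB runs from 864 CPM in Ctrl scramble to 2936 CPM in HS+REC siLonp1, and MAP1LC3B from 61.2 to 163 CPM between the same groups, while GABARAPL1 stays under 6 CPM.

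Heat was taken first. In scramble cells, 2 of the 8 genes, UBB and MAP1LC3B, were higher in HS than in Ctrl at a false discovery rate (FDR) of at most 0.05 in edgeR's quasi-likelihood test, beside 18.6% of all genes tested, and 0 were lower, beside 17.3% (also 0 at an unadjusted p under 0.05 and 0 by DESeq2). In siLonp1 cells, 3 were higher, beside 20.2% of all genes, and 1 lower, beside 22.1%. After recovery, 4 were higher than in Ctrl in scramble cells, beside 21.8%, and 1 lower, beside 20.5%, and in siLonp1 cells 4 were higher, beside 24.6%, and 2 lower, beside 26.6%. Between HS and HS+REC, 3 rose in scramble cells, beside 14.2% of all genes, and 0 fell, beside 12.7% (1, SQSTM1, at an unadjusted p under 0.05 and by DESeq2). In siLonp1 cells 3 rose over that hour, beside 16.3%, and 1 fell, beside 15.6%. The median log2 fold change of the 8 in HS against Ctrl was 0.01 in scramble and 0.17 in siLonp1 cells, beside -0.01 and 0.0004 over all genes; in HS+REC against Ctrl it was 0.17 and 0.23, beside -0.0028 and -0.0033. HS and HS+REC were each compared with the same Ctrl libraries, so those comparisons are not independent of each other.

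A change of more than 2-fold was met by UBB alone of the 8. It passed that limit in HS siLonp1 (1 of 8, beside 4.57% of all genes called in either direction), HS+REC scramble (beside 4.46%) and HS+REC siLonp1 (beside 5.71%), each against its Ctrl. The count was 0 in HS against Ctrl in scramble cells, beside 3.30%, in HS+REC against HS, beside 1.90% in scramble and 2.57% in siLonp1 cells, in siLonp1 against scramble, beside 4.17% at 37 °C, 4.17% in HS and 4.18% in HS+REC, and in the interactions of silencing with HS, beside 0.140%, and with HS+REC, beside 0.109%. In each of these comparisons it was also 0 at an unadjusted p under 0.05 in edgeR and 0 by DESeq2.

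UBB, the polyubiquitin gene, rose more than the other 7 in both heated groups against Ctrl. It was at 864, 913 and 894 CPM in Ctrl scramble, against 1506, 1495 and 1737 CPM in HS scramble and 1859, 2139 and 2337 CPM in HS+REC scramble. All 3 HS libraries lay above all 3 Ctrl libraries, and all 3 HS+REC libraries above all 3 HS libraries. HS exceeded Ctrl by a log2 fold change 0.83, 95% CI 0.66 to 1.00, adjusted p = 3.0e-08, a fold of 1.77; in HS+REC against Ctrl it was 1.25 (1.07 to 1.42, adjusted p = 2.1e-11) and in HS+REC against HS 0.42 (0.25 to 0.59, adjusted p = 4.2e-04). The siLonp1 libraries were at 1026, 1015 and 951 CPM in Ctrl, 2377, 2151 and 2132 CPM in HS and 2936, 2528 and 2319 CPM in HS+REC. Here Ctrl stood apart from both heated groups, while HS and HS+REC overlapped. HS exceeded Ctrl by a log2 fold change of 1.15 (0.98 to 1.33, adjusted p = 8.5e-11) and HS+REC exceeded Ctrl by 1.38 (1.21 to 1.55, adjusted p = 2.9e-12). The further difference of 0.22 (adjusted p = 0.0399) from HS to HS+REC lost its call without HS siLonp1 replicate 2 (0.20, adjusted p = 0.128), HS siLonp1 replicate 3 (0.20, adjusted p = 0.138), HS+REC siLonp1 replicate 1 (0.12, adjusted p = 0.312) or HS+REC siLonp1 replicate 2 (0.24, adjusted p = 0.0529). It was also lost when scaled by library size alone (0.19, adjusted p = 0.0607).

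The levels of UBB thus ran, from lowest to highest mean, Ctrl scramble (890.0 ± 24.8 CPM, SD, n = 3), Ctrl siLonp1 (997 ± 40.6), HS scramble (1579.5 ± 137), HS+REC scramble (2112 ± 240.1), HS siLonp1 (2220.0 ± 136) and HS+REC siLonp1 (2594 ± 314). HS+REC scramble and HS siLonp1, neighbours in that order, did not differ beyond their spread. The ranges of the Ctrl groups did not meet. Their log2 difference of 0.16 (adjusted p = 0.106) did not pass the limit. It did with no filter on low counts (0.18, adjusted p = 0.0251) and in a fit of only the groups compared (0.15, adjusted p = 0.00643). Silenced cells exceeded scramble cells by 0.49 (adjusted p = 3.1e-05) in HS and by 0.30 (adjusted p = 0.00426) in HS+REC. The arms did not overlap in HS but did in HS+REC, where the call was lost without HS+REC siLonp1 replicate 1 (0.19, adjusted p = 0.0546). Whether heat raised UBB more in silenced cells was asked by the interaction: it was 0.33 for HS (95% CI 0.09 to 0.57, adjusted p = 0.166) and 0.13 for HS+REC (-0.11 to 0.37, adjusted p = 0.680). Neither passed the limit. The HS interaction did pass with no filter on low counts (0.33, adjusted p = 0.0318) and in a fit of only the groups compared (0.32, adjusted p = 0.0379).

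RPS27A, the gene of a ubiquitin fused to a ribosomal protein, moved by -0.05 (adjusted p = 0.476) with HS in scramble and 0.19 (adjusted p = 0.00577) in siLonp1 cells, the second lost without HS siLonp1 replicate 1 (0.14, adjusted p = 0.0512). UBB consists of near-identical repeats and has pseudogene copies, and how reads with several matches were counted is not given in the sources used here, so part of its reads may have been lost.

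VCP, the segregase, varied little, its group means spanning 0.28 on the log2 scale. It was at 461, 456 and 438 CPM in Ctrl scramble, against 439, 434 and 438 CPM in HS scramble and 413, 398 and 438 CPM in HS+REC scramble. In siLonp1 cells it was at 478, 414 and 458 CPM in Ctrl, 401, 422 and 395 CPM in HS and 371, 371 and 371 CPM in HS+REC. The scramble groups overlapped throughout, and the lowest group was HS+REC siLonp1, where all 3 libraries lay below those of the other groups. HS+REC against Ctrl gave a log2 fold change -0.28, 95% CI -0.39 to -0.16, adjusted p = 2.0e-04 in siLonp1 cells and -0.12 (adjusted p = 0.0991) in scramble cells, where the limit was passed without HS+REC scramble replicate 3 (-0.15, adjusted p = 0.0479). It was also passed when scaled by library size alone (-0.20, adjusted p = 0.00444). The interaction for HS+REC, -0.16, had an adjusted p of 0.369, so a fall of different size in the siRNA arms was not shown. HS against Ctrl in siLonp1 cells gave -0.15 (adjusted p = 0.0358) with overlapping groups, and this call was lost without Ctrl siLonp1 replicate 1 (-0.10, adjusted p = 0.199), Ctrl siLonp1 replicate 3 (-0.13, adjusted p = 0.102), HS scramble replicate 3 (-0.13, adjusted p = 0.0580), HS siLonp1 replicate 1 (-0.14, adjusted p = 0.0913), HS siLonp1 replicate 3 (-0.13, adjusted p = 0.127) or HS+REC siLonp1 replicate 1 (-0.13, adjusted p = 0.0593). It was also lost with no filter on low counts (-0.14, adjusted p = 0.0960), with CPM above 1 required in all 18 libraries (-0.13, adjusted p = 0.0725) and in a fit of only the groups compared (-0.14, adjusted p = 0.0567). From HS to HS+REC the siLonp1 value was -0.13 (adjusted p = 0.0778). It passed the limit when scaled by library size alone (-0.16, adjusted p = 0.0249).

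Among the receptors, SQSTM1, whose product p62 gathers ubiquitin-tagged proteins into condensates, was at 244, 241 and 231 CPM in Ctrl scramble, against 232, 235 and 231 CPM in HS scramble and 218, 198 and 218 CPM in HS+REC scramble. Silenced cells gave 235, 227 and 231 CPM in Ctrl, 222, 214 and 211 CPM in HS and 187, 166 and 183 CPM in HS+REC. HS scramble overlapped Ctrl scramble, but HS siLonp1 lay below Ctrl siLonp1, and HS+REC lay below Ctrl in both arms and lowest in siLonp1. Right after heat the log2 fold change was -0.04 (adjusted p = 0.647) in scramble and -0.10 (adjusted p = 0.162) in siLonp1 cells. The second passed the limit when scaled by library size alone (-0.15, adjusted p = 0.0321). With recovery, SQSTM1 fell against Ctrl by 0.37 on the log2 scale (95% CI -0.49 to -0.26, adjusted p = 5.5e-06) in siLonp1 cells and by 0.17 (adjusted p = 0.0134) in scramble cells, the scramble call being lost without Ctrl scramble replicate 1 (-0.16, adjusted p = 0.0568) or HS+REC scramble replicate 2 (-0.13, adjusted p = 0.0864). The arms' difference in that fall, -0.20 (95% CI -0.36 to -0.04), had an unadjusted p of 0.0191 and an adjusted p of 0.244. From HS to HS+REC it fell by 0.27 (adjusted p = 4.4e-04) in siLonp1 cells. In scramble cells that step was -0.14 (adjusted p = 0.0694), which passed without HS+REC siLonp1 replicate 1 (-0.15, adjusted p = 0.0492) or HS+REC siLonp1 replicate 2 (-0.14, adjusted p = 0.0428). It also passed when scaled by library size alone (-0.19, adjusted p = 0.00920) and in DESeq2 (-0.14, adjusted p = 0.0359).

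TAX1BP1, a receptor that also brings in autophagy initiation factors, was at 121, 119 and 114 CPM in Ctrl scramble, against 117, 112 and 125 CPM in HS scramble and 147, 184 and 155 CPM in HS+REC scramble. In silenced cells it was at 128, 136 and 141 CPM in Ctrl, 157, 144 and 149.8 CPM in HS and 201, 220.3 and 180.2 CPM in HS+REC. HS scramble overlapped Ctrl scramble, whereas in silenced cells all 3 HS libraries lay above all 3 Ctrl libraries, and HS+REC lay above both in each arm. HS against Ctrl gave -0.0039 (adjusted p = 0.978) in scramble and 0.15 (adjusted p = 0.117) in siLonp1 cells. Neither passed the limit, though the second did in a fit of only the groups compared (0.16, adjusted p = 0.0261). HS+REC exceeded HS by a log2 fold change 0.46, 95% CI 0.30 to 0.62, adjusted p = 6.4e-05 in scramble and 0.42 (0.26 to 0.57, adjusted p = 1.5e-04) in siLonp1 cells. OPTN, a receptor used for mitochondria and for aggregates, moved less: its group means ran from 29.4 ± 2.72 CPM in Ctrl scramble to 37.1 ± 4.43 CPM in HS+REC siLonp1. HS+REC against Ctrl gave 0.30 (adjusted p = 0.00510) in scramble cells, and in siLonp1 cells 0.25 (adjusted p = 0.0164), a call lost without Ctrl siLonp1 replicate 1 (0.20, adjusted p = 0.0838), Ctrl siLonp1 replicate 2 (0.23, adjusted p = 0.0557) or HS+REC siLonp1 replicate 1 (0.15, adjusted p = 0.145). It was also lost when scaled by library size alone (0.17, adjusted p = 0.0897). HS in siLonp1 cells gave 0.24 (adjusted p = 0.0226), lost without Ctrl siLonp1 replicate 1 (0.20, adjusted p = 0.107), Ctrl siLonp1 replicate 2 (0.23, adjusted p = 0.0724), HS siLonp1 replicate 1 (0.24, adjusted p = 0.0509) or HS siLonp1 replicate 3 (0.23, adjusted p = 0.0688). This call too was lost when scaled by library size alone (0.19, adjusted p = 0.0586). NBR1, which works with p62 on the same condensates, passed the limit in none of the 6 comparisons of heat and recovery, with log2 fold changes from 0.01 (HS, scramble) to 0.12 (HS+REC against Ctrl, siLonp1), and that last one passed without HS+REC siLonp1 replicate 3 (0.15, adjusted p = 0.0484). It also passed with CPM above 1 required in all 18 libraries (0.14, adjusted p = 0.0353).

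MAP1LC3B, which encodes LC3B, the ATG8 protein most used to follow autophagosomes, rose with heat and again with recovery. Its scramble libraries were at 66.7, 61.2 and 61.3 CPM in Ctrl, 78.9, 74.2 and 81.1 CPM in HS and 85.1, 101 and 91.1 CPM in HS+REC. The siLonp1 libraries were at 91.2, 90.3 and 94.0 CPM in Ctrl, 129, 127 and 122 CPM in HS and 146, 163 and 133 CPM in HS+REC. Within each arm the 3 conditions did not overlap, and in each condition every siLonp1 library lay above every scramble library. Heat gave a log2 fold change 0.31, 95% CI 0.16 to 0.45, adjusted p = 0.00163 in scramble cells and 0.45 (0.31 to 0.60, adjusted p = 1.3e-05) in siLonp1 cells, and HS+REC against Ctrl 0.55 (adjusted p = 1.1e-06) and 0.68 (adjusted p = 2.4e-08). From HS to HS+REC it rose by 0.24 (adjusted p = 0.0120) in scramble cells, a call lost without HS scramble replicate 2 (0.21, adjusted p = 0.0711) or HS+REC scramble replicate 2 (0.18, adjusted p = 0.0962). In siLonp1 cells the same step was 0.23 (adjusted p = 0.0149), lost without HS siLonp1 replicate 3 (0.20, adjusted p = 0.0672) or HS+REC siLonp1 replicate 2 (0.15, adjusted p = 0.119). By mean level its groups ran Ctrl scramble (63.1 ± 3.15 CPM), HS scramble (78.1 ± 3.54), Ctrl siLonp1 (91.9 ± 1.95), HS+REC scramble (92.4 ± 8.02), HS siLonp1 (126 ± 3.59) and HS+REC siLonp1 (147 ± 15.1), and Ctrl siLonp1 and HS+REC scramble did not differ beyond their spread. GABARAPL1, an ATG8 protein of the GABARAP branch, ranged from 3.90 to 5.59 CPM over the libraries on at least 155 counts per library, and passed the limit in none of the 11 comparisons. HS+REC against Ctrl in siLonp1 cells, at 0.22 (adjusted p = 0.0994), passed without HS+REC siLonp1 replicate 3 (0.31, adjusted p = 0.0264). The copies MAP1LC3B2 and GABARAPL3 held 2 to 11 and 0 to 1 counts per library, so few reads were assigned to them.

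**Figure D2:**
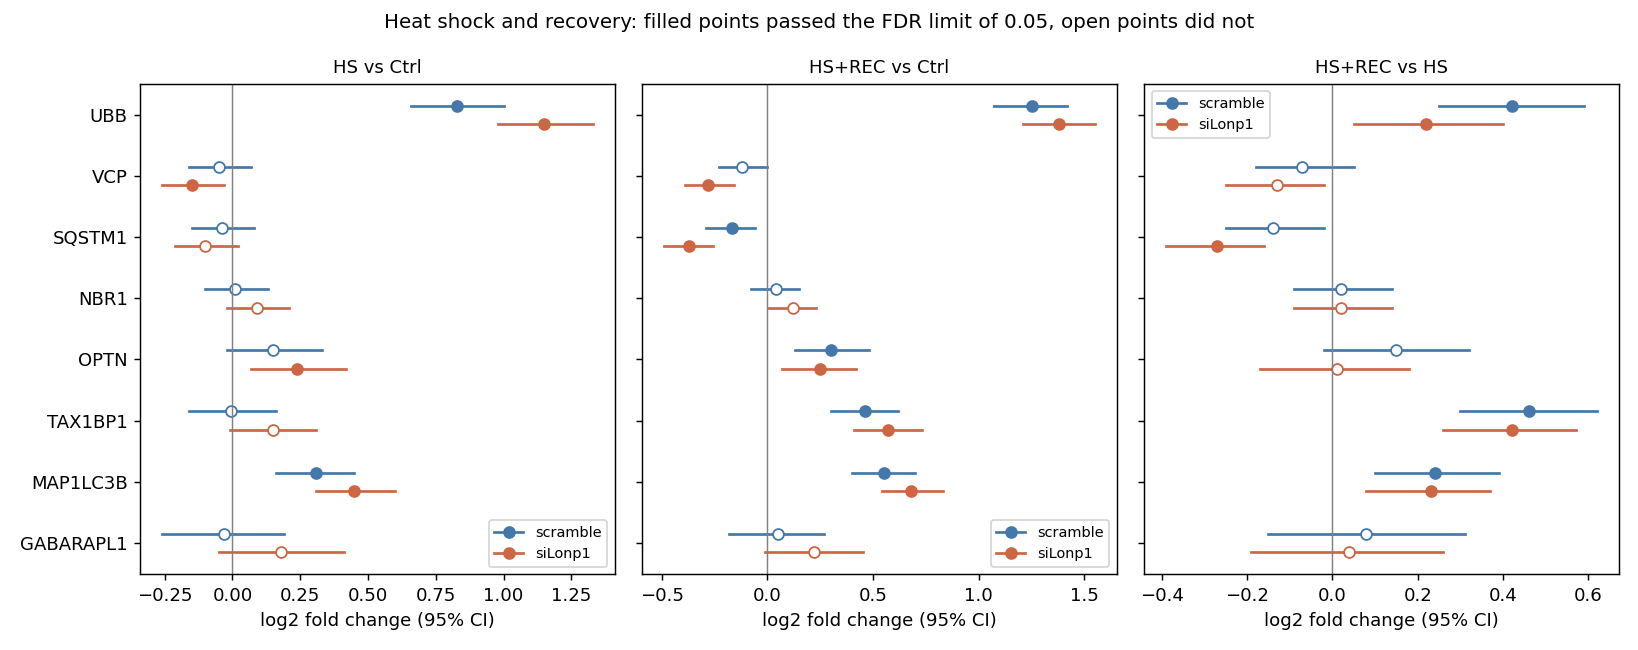
Log2 fold change with 95% CI (x axis) of each gene (y axis) in HS against Ctrl, HS+REC against Ctrl and HS+REC against HS, for scramble (blue) and siLonp1 (orange) cells; filled points passed the FDR limit of 0.05. UBB is at 0.83 and 1.15 for HS against Ctrl, and TAX1BP1 at -0.0039 and 0.15 there but 0.46 and 0.42 for HS+REC against HS.

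Silencing was then compared within each condition. In Ctrl, 2 of the 8 genes, MAP1LC3B and TAX1BP1, were higher in siLonp1 than in scramble cells, beside 26.3% of all genes, and 1, NBR1, was lower, beside 22.9%. In HS, 3 were higher, beside 28.1%, and 1 lower, beside 26.7%. In HS+REC, 3 were higher, beside 26.8%, and 3 lower, beside 27.3%. The median of the 8 was 0.04, 0.18 and 0.08 on the log2 scale in Ctrl, HS and HS+REC, beside 0.01, 0.0011 and -0.0028 over all genes. MAP1LC3B led in every condition, with a log2 fold change 0.54, 95% CI 0.39 to 0.69, adjusted p = 1.6e-06 in Ctrl, 0.69 (0.54 to 0.84, adjusted p = 3.9e-08) in HS and 0.67 (0.53 to 0.82, adjusted p = 4.4e-08) in HS+REC. TAX1BP1 was higher by 0.35 (adjusted p = 5.4e-04) in HS and 0.31 (adjusted p = 0.00182) in HS+REC, where the arms overlapped. Its 0.19 (adjusted p = 0.0399) in Ctrl lost the call without Ctrl scramble replicate 1 (0.21, adjusted p = 0.0574), Ctrl scramble replicate 2 (0.20, adjusted p = 0.0758), Ctrl scramble replicate 3 (0.17, adjusted p = 0.127), Ctrl siLonp1 replicate 2 (0.19, adjusted p = 0.0905) or Ctrl siLonp1 replicate 3 (0.16, adjusted p = 0.137). It was also lost when scaled by library size alone (0.12, adjusted p = 0.194).

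NBR1 was the member that fell with silencing in each condition. Its libraries were at 102, 98.2 and 98.2 CPM in Ctrl scramble and 86.1, 79.2 and 86.0 CPM in Ctrl siLonp1, at 103, 99.7 and 99.5 CPM in HS scramble and 87.3, 91.2 and 89.7 CPM in HS siLonp1, and at 104, 105 and 98.3 CPM in HS+REC scramble and 89.1, 96.7 and 86.7 CPM in HS+REC siLonp1. The siRNA arms did not overlap in any condition. The log2 difference was -0.25 (adjusted p = 7.2e-04) in Ctrl, -0.17 (adjusted p = 0.0123) in HS and -0.17 (adjusted p = 0.0123) in HS+REC. The HS call was lost with no filter on low counts (-0.16, adjusted p = 0.0642). The HS+REC call was lost without HS+REC siLonp1 replicate 3 (-0.14, adjusted p = 0.0665) and in a fit of only the groups compared (-0.17, adjusted p = 0.0737). SQSTM1 and VCP passed the limit in HS+REC, at -0.25 (adjusted p = 7.3e-04) and -0.17 (adjusted p = 0.0145), the VCP call being lost without HS+REC scramble replicate 3 (-0.13, adjusted p = 0.0805) and in a fit of only the groups compared (-0.17, adjusted p = 0.0647). In HS they were at -0.11 (adjusted p = 0.0969) and -0.10 (adjusted p = 0.117). When scaled by library size alone both passed, SQSTM1 (-0.21, adjusted p = 0.00268) and VCP (-0.20, adjusted p = 0.00336). In Ctrl both were near 0, at -0.05 (adjusted p = 0.498) and -0.0044 (adjusted p = 0.957). OPTN gave 0.09 (adjusted p = 0.398) in Ctrl and 0.18 (adjusted p = 0.0721) in HS, the latter passing without HS scramble replicate 3 (0.23, adjusted p = 0.0392) or HS+REC siLonp1 replicate 1 (0.18, adjusted p = 0.0412). It also passed with no filter on low counts (0.20, adjusted p = 0.0397) and in a fit of only the groups compared (0.18, adjusted p = 0.0343).

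The interaction of silencing with heat was tested for all 8. None passed the FDR limit for HS, where 0.475% of all genes had a positive and 1.39% a negative interaction, nor for HS+REC, where the shares were 0.686% and 0.896%. A negative interaction can be a smaller rise or a larger fall in silenced cells, so these shares do not give the size of the response. At an unadjusted p under 0.05 edgeR gave 1 of 8 for HS (UBB) and 1 of 8 for HS+REC (SQSTM1), and DESeq2 gave 0 past the FDR limit for both. For MAP1LC3B the interaction was 0.15 (95% CI -0.06 to 0.36) for HS and 0.13 (-0.08 to 0.34) for HS+REC, so that a change in the size of its difference between the arms was not shown.

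**Figure D3:**
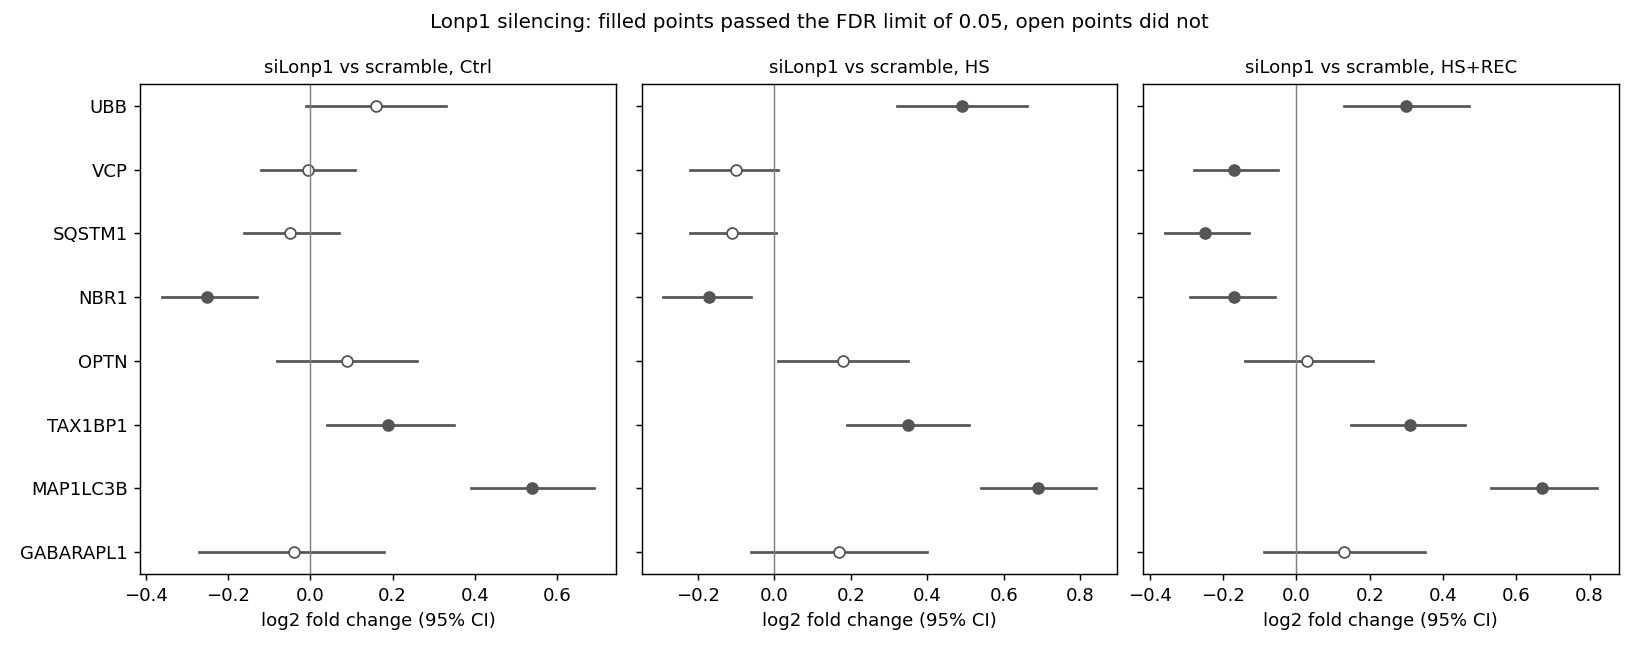
Log2 fold change with 95% CI (x axis) of each gene (y axis) in siLonp1 against scramble cells in Ctrl, HS and HS+REC; filled points passed the FDR limit of 0.05. MAP1LC3B is at 0.54, 0.69 and 0.67, and NBR1 at -0.25, -0.17 and -0.17.

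The group means of log2 CPM spanned at least 1 for UBB (1.54) and MAP1LC3B (1.22), and the genes with the most similar pattern over the 6 groups were found by the root mean square (RMS) difference of centred means. For UBB they were CNKSR3 (0.0574), SNX3 (0.0821) and LUC7L (0.0894). For MAP1LC3B they were LINC00152 (0.0545), MAST1 (0.0642) and VAC14-AS1 (0.0808). The nearest of the other members stood much farther away: MAP1LC3B was number 413 in the order for UBB, at 0.350, and TAX1BP1 number 363 in that for MAP1LC3B, at 0.217. CNKSR3, a scaffold protein gene, had means of 12.4, 24.0 and 28.5 CPM in Ctrl, HS and HS+REC scramble and 14.3, 30.1 and 36.6 CPM in the siLonp1 groups.

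Of the members that rose with heat or recovery, UBB, MAP1LC3B and TAX1BP1 had the largest log2 fold changes in HS+REC against Ctrl. Their promoter sequence is therefore shown, taken from RefSeq windows of 300 bases (250 before and 50 after a start site, GRCh38.p14). Windows were found for all 8 genes, 14 in number. Bases after the transcript start are left out below, and capitals mark a motif match. Searched on both strands were GAANNTTC and TTCNNGAA (heat shock element pairs, which can overlap each other), TGACNNNGC (antioxidant response element), TCACGTGA (E-box of the TFEB family) and TGATGNAA (amino acid response element).
UBB, plus strand, chr17:16381040-16381090: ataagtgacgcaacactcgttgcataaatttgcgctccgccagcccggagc
MAP1LC3B, plus strand, chr16:87392086-87392335: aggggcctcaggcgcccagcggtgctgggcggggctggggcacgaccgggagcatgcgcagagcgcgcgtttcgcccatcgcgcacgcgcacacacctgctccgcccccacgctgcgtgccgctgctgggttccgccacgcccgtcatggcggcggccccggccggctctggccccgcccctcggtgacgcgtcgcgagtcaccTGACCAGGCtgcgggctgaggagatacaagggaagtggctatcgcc
TAX1BP1, MANE Select start, plus strand, chr7:27739912-27740161: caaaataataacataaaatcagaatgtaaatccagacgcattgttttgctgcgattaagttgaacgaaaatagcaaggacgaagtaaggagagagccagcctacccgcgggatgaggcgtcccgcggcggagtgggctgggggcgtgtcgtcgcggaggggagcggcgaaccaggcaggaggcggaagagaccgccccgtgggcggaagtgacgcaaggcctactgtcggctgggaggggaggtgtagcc
TAX1BP1, upstream start, plus strand, chr7:27739123-27739372: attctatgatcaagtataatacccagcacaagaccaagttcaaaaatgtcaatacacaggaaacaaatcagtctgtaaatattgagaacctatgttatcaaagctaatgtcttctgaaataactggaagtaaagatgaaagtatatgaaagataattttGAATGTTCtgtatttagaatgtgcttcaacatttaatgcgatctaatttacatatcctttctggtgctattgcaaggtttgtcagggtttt
For UBB only 51 bases precede the MANE Select start in these windows, since the start sites that RefSeq gives lie farther in.

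A heat shock element pair was matched in 1 of the 14 windows, by GAATGTTC in the upstream window of TAX1BP1, 91 bases before its start; the head-to-head form was held by 6.77% of all 35116 windows. The tail-to-tail form was held by 7.74% of all windows and by 0 of the 14. TGACNNNGC was matched in 4 of the 14, beside 13.3% of all windows. These belong to 3 members: MAP1LC3B (TGACCAGGC, 46 bases before the start), VCP (TGACGTGGC, 189 bases before the start) and UBB (TGACGCGGC, past the MANE Select start and in both of its overlapping windows). TCACGTGA (0.980% of all windows) and TGATGNAA (3.62%) were matched in 0 of the 14. A match of this kind describes letters only, and a window without one says nothing of sites elsewhere.

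The wider pathway was described with lists of genes around the 8. In HS against Ctrl in scramble cells, 18.6% of all genes were higher and 17.3% lower. VCP and the cofactors that bring it to its substrates, 28 tested, had 4 higher and 5 lower, with a median log2 fold change of -0.02 beside -0.01 over all genes. ZFAND2A (AIRAP), an arsenite- and heat-inducible proteasome-binding protein, rose by 2.97 (adjusted p = 9.3e-17) and VCPIP1, a deubiquitinase that binds VCP, by 0.72 (adjusted p = 1.6e-07), while VIMP, an anchor of VCP at the endoplasmic reticulum, gave -0.38 (adjusted p = 4.2e-04). Receptors of selective autophagy, 20 tested with the members included, had 1 higher and 3 lower (median -0.03). The scaffold WDFY3 was at 0.34 (adjusted p = 0.0141), lost without Ctrl scramble replicate 2 (0.31, adjusted p = 0.0615) or HS scramble replicate 2 (0.26, adjusted p = 0.0948), and SEC62, a receptor for the endoplasmic reticulum, at -0.23 (adjusted p = 0.00884), lost without Ctrl scramble replicate 1 (-0.19, adjusted p = 0.0549) or HS scramble replicate 2 (-0.20, adjusted p = 0.0505). In the ATG8 family and its conjugation machinery, 16 tested with 2 members included, 2 were higher and 2 lower (median -0.04), with ATG16L1, which places lipidation on the membrane, at 0.41 (adjusted p = 5.7e-06) and the protease ATG4A at -0.35 (adjusted p = 8.5e-04).

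Of 24 tested genes of autophagy initiation and membrane supply, 6 were higher and 2 lower after HS, beside the same 18.6% and 17.3% of all genes (median 0.01). They included ATG14 and UVRAG, subunits of the VPS34 complexes, at 0.62 (adjusted p = 4.7e-07) and 0.49 (adjusted p = 1.4e-05), and ATG101, of the ULK1 complex, at 0.46 (adjusted p = 5.4e-05). The lysosome and TFEB family list, 22 tested, had 0 higher and 4 lower (median -0.11); LAMP2, a lysosomal membrane protein, was at -0.35 (adjusted p = 2.0e-04), and ATP6V1B2, of the proton pump, at -0.24 (adjusted p = 0.00121). Among 9 enzymes of free ubiquitin turnover, 1 was higher and 2 were lower (median -0.12): OTULIN, which cuts linear ubiquitin, gave 0.39 (adjusted p = 1.5e-04), and USP14, of the proteasome, -0.27 (adjusted p = 0.00164). Partners of the receptors, 13 tested, had 4 higher and 2 lower (median 0.07). BAG3, a co-chaperone that routes proteins to p62, had the largest value, 5.37 (adjusted p = 1.5e-21); NFE2L2, a transcription factor that acts on SQSTM1, was at 0.64 (adjusted p = 4.4e-09), and TBK1, the kinase of OPTN, at -0.42 (adjusted p = 2.9e-04).

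The same lists were counted with silencing in Ctrl, where 26.3% of all genes were higher and 22.9% lower. VCP and its cofactors had 9 of 28 higher and 6 lower (median 0.05, beside 0.01 over all genes), with UBXN11 at -0.72 (adjusted p = 3.0e-05), the glycanase NGLY1 at -0.49 (adjusted p = 1.4e-05) and the ubiquitin ligase UBE4B at -0.45 (adjusted p = 2.1e-05). Receptors had 10 of 20 higher and 4 lower (median 0.14): CCPG1 and ATL3, both receptors for the endoplasmic reticulum, were at 0.53 (adjusted p = 6.5e-04) and -0.47 (adjusted p = 2.8e-04), and CALCOCO1 at 0.48 (adjusted p = 3.8e-06). In the ATG8 list 3 of 16 were higher and 3 lower (median 0.09), with GABARAPL2 at 0.37 (adjusted p = 6.0e-05), the conjugating enzyme ATG10 at -0.63 (adjusted p = 1.6e-05) and the protease ATG4C at -0.43 (adjusted p = 0.00103). Initiation genes had 8 of 24 higher and 3 lower (median -0.01). WIPI1 and WDR45, which bind phosphoinositide on the forming membrane, were at 1.83 (adjusted p = 2.0e-12) and 0.65 (adjusted p = 2.5e-07), and TMEM41B, a lipid scramblase, at 0.56 (adjusted p = 4.1e-07).

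The lysosome list had 7 of 22 higher and 4 lower with silencing, beside the same 26.3% and 22.9% of all genes (median 0.05). LAMP2 was at 0.88 (adjusted p = 2.3e-10), opposite in sign to its response to heat, and the protease CTSL at -1.08 (adjusted p = 5.6e-05); MITF, a transcription factor of the TFEB family, was at -0.85 (adjusted p = 0.00813), lost without Ctrl siLonp1 replicate 1 (-0.64, adjusted p = 0.0594). Ubiquitin turnover had 2 of 9 higher and 1 lower (median 0.02). Receptor partners had 3 of 13 higher and 1 lower (median 0.02), among them TBKBP1, an adaptor of TBK1, at 0.71 (adjusted p = 3.0e-04), PINK1, the kinase that starts removal of mitochondria, at 0.43 (adjusted p = 3.0e-05), and the ubiquitin ligase TRAF6 at 0.26 (adjusted p = 0.00761), a call lost when scaled by library size alone (0.18, adjusted p = 0.0562). BAG3, so much higher after heat, was at -0.06 (adjusted p = 0.602) here.

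**Figure D4:**
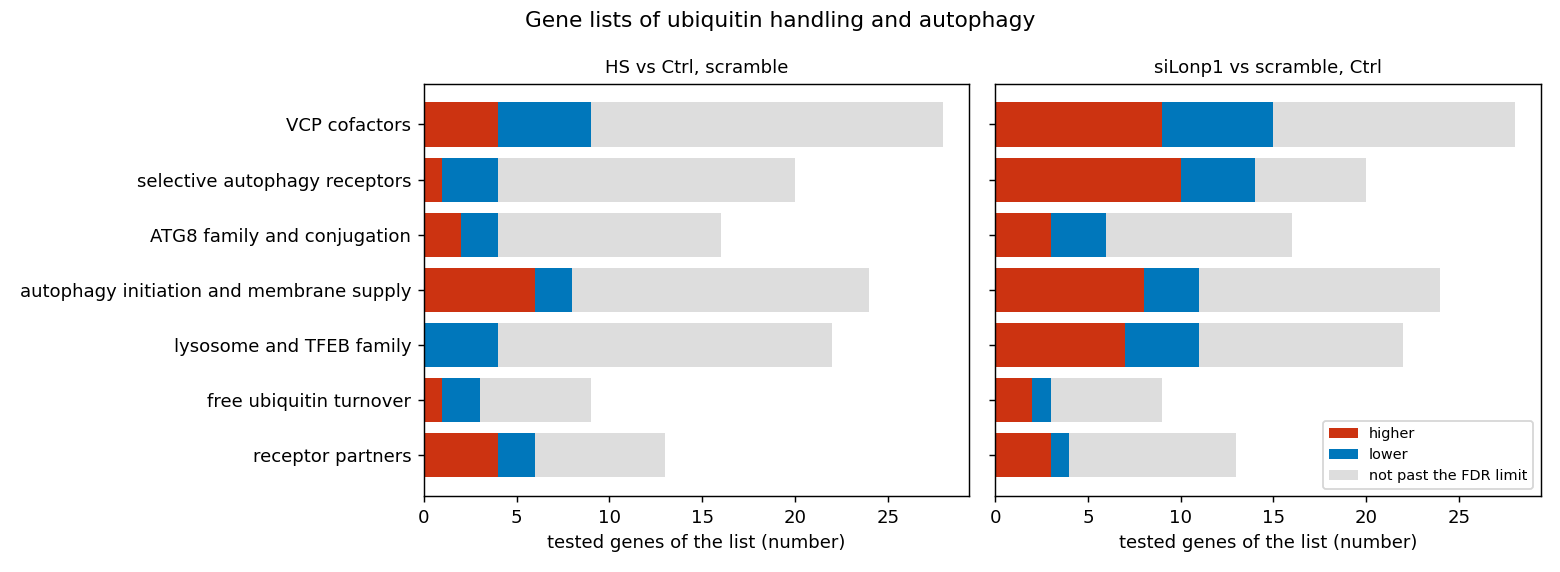
Number of tested genes (x axis) of each list (y axis) that were higher (red), lower (blue) or not past the FDR limit of 0.05 (grey) in HS against Ctrl in scramble cells (left) and in siLonp1 against scramble cells in Ctrl (right). Of the 20 receptors, 1 was higher with heat, beside 18.6% of all genes, and 10 with silencing, beside 26.3%.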

How the data were processed

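The deposited file held counts per gene symbol for 18 libraries; the authors made stranded, paired-end mRNA libraries, and the submitters' processing notes name STAR 2.7.3a, featureCounts, R 3.6.3, edgeR and hg38. Multi-mapping and strand settings of the counting are not given in the sources used here. Totals were 30815860 to 47279297 counts per library. Groups were taken from the sample labels. The 12832 of 26485 genes that exceeded 1 CPM in 3 or more libraries were scaled by TMM and fitted in 1 edgeR 4.0.16 model (R 4.3.3) with a mean for each of 6 groups. Each of 11 contrasts was tested by the quasi-likelihood F test with Benjamini-Hochberg adjustment over all genes tested; a gene passed at FDR of at most 0.05, and the 2-fold rule was added for calls. Intervals are 95%. The steps were tested on simulated data. Alternatives were DESeq2 1.42.0, other scalings and filters, a stricter FDR of 0.01, a replicate block and each library left out. Beside the 8 members, LONP1 and RPS27A, the text names, from each list, up to 3 genes that passed the FDR limit with the largest change in HS against Ctrl (scramble) and in siLonp1 against scramble (Ctrl), at a mean CPM of at least 1. The 3 genes of most similar pattern were named for members spanning at least 1 log2 unit. Some genes so chosen whose calls were lost without a single library are left out, as are some other planned results. The members and lists were chosen with earlier results of these data known. Per-length levels used GENCODE 44 (GRCh38) and promoters used RefSeq (GRCh38.p14).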

Additional observations from a re-analysis of the deposited data

Results flagged for a closer look

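No member of the 8 had a heat response that differed between the siRNA arms past the FDR limit, but 3 of the genes named beside them did in edgeR's interaction test. The ratio of silenced to scramble LONP1 was lower in HS than in Ctrl (interaction -0.76 on the log2 scale, adjusted p = 4.7e-04) and higher in HS+REC (0.43, adjusted p = 0.0321). ZFAND2A rose more in silenced cells, by 0.68 for HS (adjusted p = 0.00938) and 0.58 for HS+REC (adjusted p = 0.0307). Its siLonp1 libraries lay below the scramble libraries in Ctrl and above them in HS, and the arms overlapped in HS+REC. A lower level without heat in silenced cells thus enters both values. TBK1 fell more in silenced cells after recovery, with an interaction of -0.47 (adjusted p = 0.0359). The HS values of LONP1 and ZFAND2A passed with each of the 18 libraries left out in turn. The HS+REC values did not. LONP1 ranged from 0.36 to 0.50 (adjusted p 0.0168 to 0.113) and lost its call without Ctrl scramble 1, 2 or 3, Ctrl siLonp1 1 or 3, HS+REC scramble 1 or 2, or HS+REC siLonp1 1 or 3. ZFAND2A ranged from 0.48 to 0.67 (adjusted p 0.00901 to 0.111), with the call lost without Ctrl scramble 1, 2 or 3, Ctrl siLonp1 1 or 3, HS+REC scramble 1, or HS+REC siLonp1 1 or 2. TBK1 ranged from -0.56 to -0.39 (adjusted p 0.00832 to 0.103) and was not called without Ctrl scramble 1, 2 or 3, Ctrl siLonp1 2 or 3, HS+REC scramble 1 or 2, or HS+REC siLonp1 1. LONP1 was at levels of 11.5 to 28.9 CPM in the silenced libraries, so its values there rest on fewer counts than in scramble cells.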

How the results depend on the processing

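Of 2288 values of the 8 genes under other settings, 2213 kept their side of the FDR limit, 53 lost the call, 22 gained it and 0 called values reversed. Some values near 0 that were not called changed sign among the 2213. With single libraries left out, TAX1BP1 in HS against Ctrl, scramble, ran from -0.03 to 0.03, and OPTN in HS+REC against HS, siLonp1, from -0.11 to 0.06. An FDR limit of 0.01 took the members past it in siLonp1 cells from 4 to 2 for HS against Ctrl and from 4 to 2 for HS+REC against HS; both ranged from 2 to 4 with each library left out. For the interaction of silencing with HS the count went from 0 to 1 (UBB) with no filter on low counts and in a fit of only the groups compared. The cause was not tested. Scaling by library size alone lowered the median of all genes by up to 0.10 (siLonp1 against scramble, HS) and changed 10 of 88 member calls, 4 of them lost: OPTN in HS (0.19, adjusted p = 0.0586) and in HS+REC (0.17, adjusted p = 0.0897) against Ctrl and UBB in HS+REC against HS (0.19, adjusted p = 0.0607), all in siLonp1 cells, and TAX1BP1 in siLonp1 against scramble, Ctrl (0.12, adjusted p = 0.194). The 6 gained were all decreases: VCP in HS+REC against Ctrl, scramble (-0.20, adjusted p = 0.00444), and against HS, siLonp1 (-0.16, adjusted p = 0.0249); SQSTM1 in HS against Ctrl, siLonp1 (-0.15, adjusted p = 0.0321), and HS+REC against HS, scramble (-0.19, adjusted p = 0.00920); and both in siLonp1 against scramble, HS (-0.20, adjusted p = 0.00336) and (-0.21, adjusted p = 0.00268). Same-numbered libraries did not deviate together throughout (correlations -0.379 to 0.462 over 27 pairs, 6 over 0.1, and 9 of 27 correlated best with their own number). In HS+REC against HS, replicates 1, 2 and 3 gave 0.275, -0.161 and 0.132 in scramble and 0.262, 0.09 and 0.124 in siLonp1 cells. With the replicate block 1 of 88 calls was lost, UBB in HS+REC against HS in siLonp1 cells (0.22, adjusted p = 0.0538). Over all genes, calls at 2-fold depended on the filter. With none they went from 424 to 675 in HS against Ctrl, scramble; from 572 to 1013 (scramble) and 733 to 1301 (siLonp1) in HS+REC against Ctrl; from 244 to 437 and 330 to 605 in HS+REC against HS; and from 535 to 855, 535 to 944 and 536 to 973 for silencing in Ctrl, HS and HS+REC. Requiring CPM above 1 in all 18 libraries gave 266, 380 (from 587 in HS, siLonp1), 362, 477, 138, 188, 295, 302 and 308 in the order of the comparisons with HS, HS+REC and silencing. Genes past the FDR limit in the interaction with HS went from 240 to 497 (no filter), 440 (DESeq2), 731 (only the groups compared) and 80 (FDR 0.01), and to between 98 and 526 with single libraries left out. For HS+REC they went from 203 to 385 (no filter), 317 (DESeq2) and 57 (FDR 0.01), and to between 96 and 304 with single libraries left out. At 2-fold the interaction counts of 18 and 14 became 30 and 35 with no filter, 11 and 6 with the strict filter and 8 and 8 at FDR 0.01, with ranges of 8 to 26 and 8 to 35 over single libraries left out. The number of genes tested also differs between the filters, and its part in these changes was not tested. Depth limited GABARAPL1 most, at 155 to 220 counts per library.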

Other observations

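The lists around the 8 genes were also counted in HS+REC against Ctrl. In scramble cells 21.8% of all genes were higher and 20.5% lower (median log2 fold change -0.0028), and in silenced cells 24.6% and 26.6% (median -0.0033). VCP and its cofactors, 28 genes, had 10 higher and 3 lower (median 0.07) in scramble cells and 10 higher and 5 lower (median 0.0035) in silenced cells. The ATG8 family and its conjugation, 16 genes, had 6 higher and 1 lower (median 0.08) in scramble cells and 7 higher and 1 lower (median 0.14) in silenced cells. Autophagy initiation and membrane supply, 24 genes, had 5 higher and 2 lower (median 0.05) in scramble cells and 6 higher and 3 lower (median 0.08) in silenced cells. The lysosome and TFEB family list, 22 genes, had 4 higher and 4 lower (median -0.01) in scramble cells and 5 higher and 4 lower (median 0.0005) in silenced cells. The 9 enzymes of free ubiquitin turnover had 1 higher and 3 lower (median -0.05) in scramble cells and 1 higher and 6 lower (median -0.16) in silenced cells. Partners of the receptors, 13 genes, had 5 higher and 2 lower (median 0.08) in scramble cells and 5 higher and 3 lower (median 0.05) in silenced cells. The 20 selective autophagy receptors, members included, had 2 higher and 1 lower (median 0.05) in scramble cells and 2 and 2 (median 0.02) in silenced cells. Apart from the members, the 16 others had 0 higher and 0 lower in scramble cells and 0 and 1 in silenced cells. From HS to HS+REC, 3 of these 16 were higher in scramble cells, beside 14.2% of all genes, and 2 lower, beside 12.7%. In silenced cells 1 was higher over that step, beside 16.3%, and 1 lower, beside 15.6%. In the interaction of silencing with HS+REC, 1 of the 28 VCP genes (ZFAND2A) had a positive value past the FDR limit and 0 a negative one. Of the 13 receptor partners, 0 were positive and 1 (TBK1) was negative. As given above, both calls were lost without some single libraries. The other lists here had 0 of either sign, beside 0.686% (positive) and 0.896% (negative) of all genes. No list was tested as a whole.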
